A study of Sus scrofa with 63 samples.

Results

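The genes of the swine leukocyte antigen (SLA) complex, the major histocompatibility complex (MHC) of the pig, were examined in the jejunum of late-gestation fetuses together with CD74 and B2M, the proteins that accompany class II and class I molecules. Members were all array probes whose gene name, as written in the scanner files, was SLA-1, SLA-2, SLA-3, SLA-DRA, SLA-DRB1, SLA-DQA1, SLA-DQB1, SLA-DMA, CD74 or B2M. No probe carried the name SLA-2, so 9 of the 10 genes were represented, out of 45222 gene names on the array, by 47 of its 60305 probes. All 47 passed the filter on dim probes, under which 40515 probes were tested. SLA-1 had 7 probes, SLA-3 had 8, B2M had 9, SLA-DRA had 7, SLA-DRB1 had 4, SLA-DQA1 had 2, SLA-DQB1 had 4, SLA-DMA had 2 and CD74 had 4. The 24 probes of SLA-1, SLA-3 and B2M are called class I probes here, and the other 23 class II probes.

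RNA came from the middle jejunum of 63 male fetuses recovered by caesarean section at day 90 or day 110 of gestation, and each RNA was hybridised alone to a one-colour Agilent pig array. The study compared Large White (LW) with Meishan (MS) pigs because newborn MS piglets survive better, and asked how far the gut had matured before birth. Sows of each breed received mixed LW and MS semen, so that purebred and crossbred fetuses grew as litter mates: LWMS fetuses had an LW sire and an MS sow, and MSLW fetuses had an MS sire and an LW sow. There were 9 LW, 9 LWMS, 8 MSLW and 6 MS fetuses at day 90, and 9 LW, 9 LWMS, 6 MSLW and 7 MS fetuses at day 110. The labels do not tell which fetuses shared a sow. Litter mates were therefore counted as independent, the p-values measure the spread between fetuses, and the breed of the sow cannot be told apart from differences between the few individual sows of each breed. The same limit holds for MS minus LW, whose fetuses came from different sows. It holds for age too, since recovery by caesarean places day 90 and day 110 in different litters. The study fitted the sow as a random effect, which the labels did not allow here.

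Class I molecules consist of a heavy chain, encoded in the pig by SLA-1, SLA-2 and SLA-3, held by B2M (β2-microglobulin), and they show peptides from inside the cell to CD8 T cells. Nearly all nucleated cells carry them. Class II molecules are pairs of an α and a β chain (SLA-DRA with SLA-DRB1, SLA-DQA1 with SLA-DQB1) that show peptides taken up from outside to CD4 T cells, and are mainly made by dendritic cells, macrophages and B cells, with the gut epithelium able to make them under interferon-γ. CD74, the invariant chain, guards the class II groove during assembly, and SLA-DMA is a subunit of the DM molecule that exchanges its remnant for peptide. The SLA genes are highly polymorphic, so a 60-base probe can match the alleles of one breed better than those of another. Each probe was therefore read on its own and set against the other probes of its gene.

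Levels are log2 signals relative to the 75th percentile of the same array. Differences are log2 units, given as MS minus LW or as day 110 minus day 90, with standard errors (SE) from limma. The cut-offs were taken from the study but applied here to single limma contrasts without the sow. In the study, 0.01 was read on an F-type test of a mixed model, 0.5 on changes with age and 0.05 on its parental model. An age or breed difference counted as called if its size reached 0.5 with an adjusted p no higher than 0.01, and a difference between breeds of the sire or of the sow if its adjusted p was below 0.05. The F test and the interaction were read at 0.01. All adjusted p-values are Benjamini-Hochberg values over the 40515 probes. Whole tissue was extracted, so fewer cells of a type and less RNA per cell cannot be told apart.

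Between 51.2% and 87.6% of probes were well above background on an array, no spot was saturated, and all arrays shared 1 scan date over 8 slides. Over 8 probes of jejunal epithelium, the summed level lay between 7.47 and 9.74 on 62 of 63 arrays. The remaining array, fetus 632 (MS, day 110), had the lowest mean correlation with the other arrays (0.905, next lowest 0.92) and a summed epithelial level of 6.41. Its levels of FABP2 (0.20, against 4.49 to 8.05 in the other MS fetuses of that day), LCT (-1.30 against 3.41 to 5.60) and MTTP (-1.21 against 4.00 to 6.63), genes of absorptive enterocytes, were below those of every other array, whereas EPCAM and CDH1, expressed by all epithelial cells, were within its group's range. It was the lowest of its group for 43 of the 47 member probes. Fetus 450 (MSLW, day 90) was the lowest of its group for 23 of 23 class II probes, with a median class II level 2.41 below the other MSLW fetuses of that day and a class I level within 0.06 of them. Both fetuses were picked out after their values were seen. Member values without one or the other are given where they end a call, turn a direction or move by over 1.5 times. Differences of other genes and lists include all fetuses.

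The sequences that carry the comparison of probes are shown first, each 5′ to 3′ as in the array design. A pair of probes, one named SLA-1 and the other SLA-3, covers nearly the same stretch and differs by G7C, G18T, G19A and C39G, where the first base is that of the SLA-1 probe, the position counts from 1 at its 5′ end and the last base is that of the SLA-3 probe. Capitals mark these 4 bases.
SLA-1 probe A_72_P440391: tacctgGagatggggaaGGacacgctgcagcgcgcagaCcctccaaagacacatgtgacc
SLA-3 probe A_72_P440386: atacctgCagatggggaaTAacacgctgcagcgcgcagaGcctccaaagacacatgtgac
The SLA-3 probe with the largest breed difference, A_72_P683231, is shown whole. The transcripts listed for it in the array design belong, by RefSeq, to SLA-2, SLA-3, SLA-5 and LOC100513601. The transcripts listed for both probes of the pair above also include SLA-2, so that these probes can read several class I genes at once. No SLA-1 probe listed a transcript that RefSeq gives to SLA-1, so that name rests on the array design alone.
SLA-3 probe A_72_P683231: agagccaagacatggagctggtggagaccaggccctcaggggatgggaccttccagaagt
Another pair of SLA-3 probes, A_72_P515992 and A_72_P609764, overlaps by 57 bases and differs by C30A and A60G. In 30 bases of each, capitals mark the first of these.
SLA-3 probe A_72_P515992, bases 15 to 44: cacagttccaagggtCggtttagaaatagg
SLA-3 probe A_72_P609764, bases 12 to 41: cacagttccaagggtAggtttagaaatagg
SLA-3 probe A_72_P649741, bases 1 to 30: ttctgcagctgcctctgaaagggtctgtgt

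Further sequences show the probes that disagree within SLA-1, SLA-DQB1 and SLA-DQA1. The SLA-1 probes A_72_P035616 and CUST_366_PI427286967 share 31 identical bases, and A_72_P124686 covers the same stretch with T42A relative to A_72_P035616, marked by a capital.
SLA-1 probe A_72_P035616, bases 31 to 60: agagatttccttagtttgaaagaggaaata
SLA-1 probe CUST_366_PI427286967, bases 2 to 31: agagatttccttagtttgaaagaggaaata
SLA-1 probe A_72_P124686, bases 14 to 43: agagatttcctAagtttgaaagaggaaata
The SLA-DQB1 probes A_72_P039061 and A_72_P585101 follow each other on the transcript and overlap by 17 bases, in capitals, whereas A_72_P631166 overlaps neither.
SLA-DQB1 probe A_72_P039061, bases 31 to 60: tcctattttccctCAACAGACTGTGCAAGA
SLA-DQB1 probe A_72_P585101, bases 1 to 30: CAACAGACTGTGCAAGAgaagcacattgaa
SLA-DQB1 probe A_72_P631166, bases 1 to 30: tgtgttgactaccattacttcttcgtttgt
Both SLA-DQA1 probes are shown because they differed in sign between the breeds.
SLA-DQA1 probe A_72_P743257: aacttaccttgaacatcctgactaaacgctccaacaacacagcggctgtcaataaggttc
SLA-DQA1 probe A_72_P765361, bases 1 to 30: ctcagtgaccctaaattaatatgtacatgg

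Over the 8 groups together, 14 of the 47 member probes differed by the F test (29.8%), beside 28.7% of all probes tested. The 14 comprised 12 of the 24 class I probes and 2 of the 23 class II probes. SLA-3 had 6 of its 8 probes called, SLA-1 4 of 7 and B2M 2 of 9, while SLA-DQA1 and SLA-DQB1 had 1 each. No probe of SLA-DRA, SLA-DRB1, SLA-DMA or CD74 was called. Without fetus 632 the count was 23, beside 31.8% of all probes tested.

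**Figure D1:**
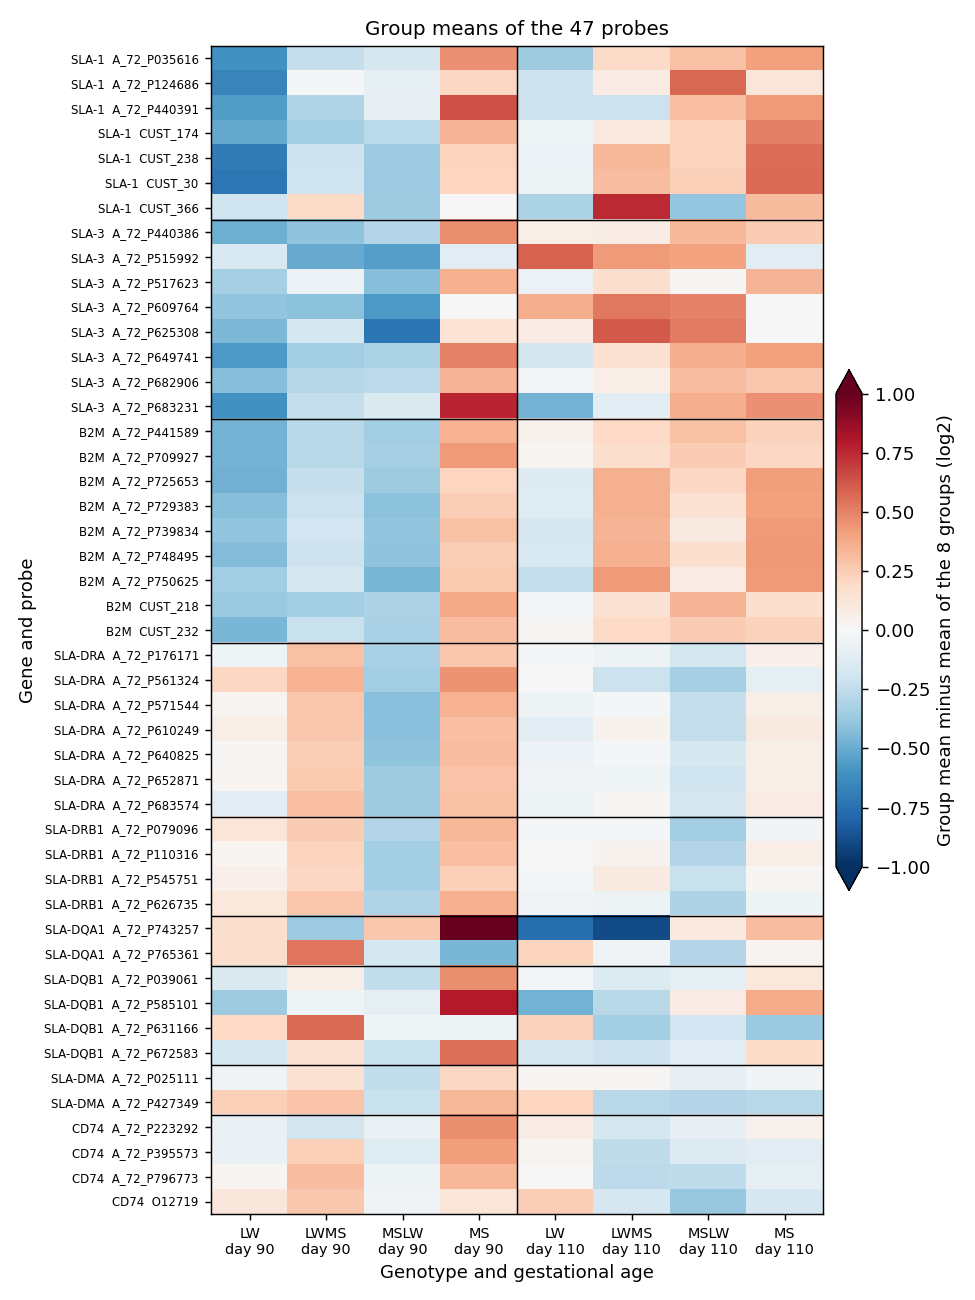
Heat map of the 47 member probes (rows, grouped by gene) over the 8 groups of genotype and gestational age (columns), coloured by the group mean minus the mean of the 8 groups in log2 units (red higher, blue lower). The SLA-1, SLA-3 and B2M rows are mostly bluest in LW at day 90 and redder at day 110, except that SLA-3 probes A_72_P515992 and A_72_P609764 are red at day 110 in LW, LWMS and MSLW but not in MS.

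SLA-1 and part of the SLA-3 probes were higher in MS than in LW fetuses. Over both days, 8 of 47 member probes were called higher in MS (17%), beside 3.3% of all probes. None was called lower. The member median was 0.42 with 42 of 47 above 0, against a median of 0.03 over all probes tested. Of the 8 called, 5 were SLA-1 probes, 2 were SLA-3 probes and 1 was an SLA-DQB1 probe. Of the 24 class I probes 7 were called, with a median of 0.60, and of the 23 class II probes 1, with a median of 0.17. Without fetus 632, 20 member probes were called, 17 of class I and 3 of class II, and the 20 included the 8. Of all probes, 9.27% were then called in either direction, beside 8.03% with all fetuses.

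At day 90, 8 of 47 were called higher in MS (17%), 7 of class I and 1 of class II, beside 1.36% of all probes, and 45 of 47 lay above 0. That count was 4 with no filter on dim probes, and 1 under median centring and 1 with the purebred fetuses fitted alone. Calls over all probes, in either direction, were 2.11%, 2.63% and 2.44% in these fits, beside 3.58% in the reported fit. At day 110, 1 of 47 was called higher (2.13%), beside 1.84% of all probes, and 33 of 47 lay above 0. Without fetus 632 the day 110 count was 7, with 40 of 47 above 0. Of all probes, 5.41% were then called in either direction, beside 5% with all fetuses. The interaction of breed with age was called for none of the 47 by limma, beside 0.0173% of all probes, and 3 member probes had an unadjusted p below 0.05. The median interaction was -0.31 with fetus 632 and -0.14 without it. The breed difference is therefore not shown to differ between the days, although the count of calls does.

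Among SLA-1 probes, A_72_P035616 ranged from 5.87 to 7.07 in LW (median 6.30) and from 6.61 to 7.84 in MS (median 7.38) at day 90. At day 110 it ranged from 5.11 to 7.32 in LW (median 6.95) and from 6.59 to 7.75 in MS (median 7.24). The ranges of the breeds overlapped on both days. At day 110, LW fetuses 557, 559 and 850 lay at 5.52, 5.11 and 5.68, below all MS fetuses, and the other 6 LW fetuses lay at 6.68 or above, within the MS range. The difference was 0.92 ± 0.19 (SE, adjusted p = 0.000236, limma). The nearly identical probes CUST_238_PI427286967 and CUST_30_PI427286967, which differ by A60C, gave 0.77 (adjusted p = 0.000492) and 0.78 (adjusted p = 0.000357). CUST_174_PI427286967 gave 0.70 (adjusted p = 7.01e-05) and A_72_P440391 gave 0.92 (adjusted p = 0.00179). The remaining SLA-1 probes, A_72_P124686 and CUST_366_PI427286967, did not pass the test, and all 7 lay between 0.42 and 0.92.

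SLA-3 probes split in their breed difference. A_72_P683231 ranged from 2.94 to 3.97 in LW (median 3.24) and from 3.77 to 5.41 in MS (median 4.82) at day 90, and from 2.48 to 4.33 in LW (median 3.63) and from 3.15 to 5.03 in MS (median 4.46) at day 110. The groups met only at their edges at day 90, and at day 110 the lowest MS fetus was fetus 632. The difference was 1.15 ± 0.18 (SE, adjusted p = 1.12e-06, limma), or 2.22-fold, and it was above 0 on all 7 slides that held both breeds, from 0.96 to 1.57. Slide values here and below compare means of all fetuses on a slide, so day and genotype are not balanced within them. A_72_P683231 was the single member probe called at day 110, at 0.93 (adjusted p = 0.00716, limma). A_72_P649741 was higher in MS likewise, by 0.83 (adjusted p = 0.000299), with medians at day 90 of 5.41 in LW and 6.63 in MS.

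The overlapping pair A_72_P515992 and A_72_P609764 did not show this. A_72_P515992 ranged from 2.96 to 4.71 in LW (median 3.79) and from 3.14 to 4.24 in MS (median 3.97) at day 90, and from 3.93 to 5.07 in LW (median 4.59) and from 2.61 to 4.47 in MS (median 3.91) at day 110. The breeds thus lay together at day 90, and the MS fetuses were the lower ones at day 110. Over both days its difference was -0.33 (adjusted p = 0.183), and that of A_72_P609764 was 0.01 (adjusted p = 0.963), which turned negative with the authors' processed values and with quantile normalization. A_72_P625308 (0.25), A_72_P682906 (0.53), A_72_P517623 (0.54) and A_72_P440386 (0.57, adjusted p = 0.0148) lay between the extremes and were not called over both days, though A_72_P440386 was called at day 90, at 0.95.

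The disagreement within genes was tested as the log ratio of each probe to the probe of its gene with the highest mean signal, for 12076 such ratios over 5188 genes. In MS minus LW, 4 of the 38 member ratios were called (10.5%), beside 4.57% of all ratios. Against A_72_P649741, the MS minus LW ratio was -1.16 ± 0.13 (SE, adjusted p = 9.68e-11, limma) for A_72_P515992 and -0.82 ± 0.12 (adjusted p = 5.4e-07) for A_72_P609764. Against A_72_P039061, it was 0.63 ± 0.10 (adjusted p = 1.15e-06) for A_72_P585101 and -0.79 ± 0.19 (adjusted p = 0.00213) for A_72_P631166, both of SLA-DQB1. These 4 ratios show that probes of one gene name changed unequally between the breeds. Whether alleles under the probes, other class I genes read by them or transcript level set the difference was not tested. No ratio of SLA-1, B2M, SLA-DRA, SLA-DRB1, SLA-DQA1, SLA-DMA or CD74 was called in this comparison.

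**Figure D2:**
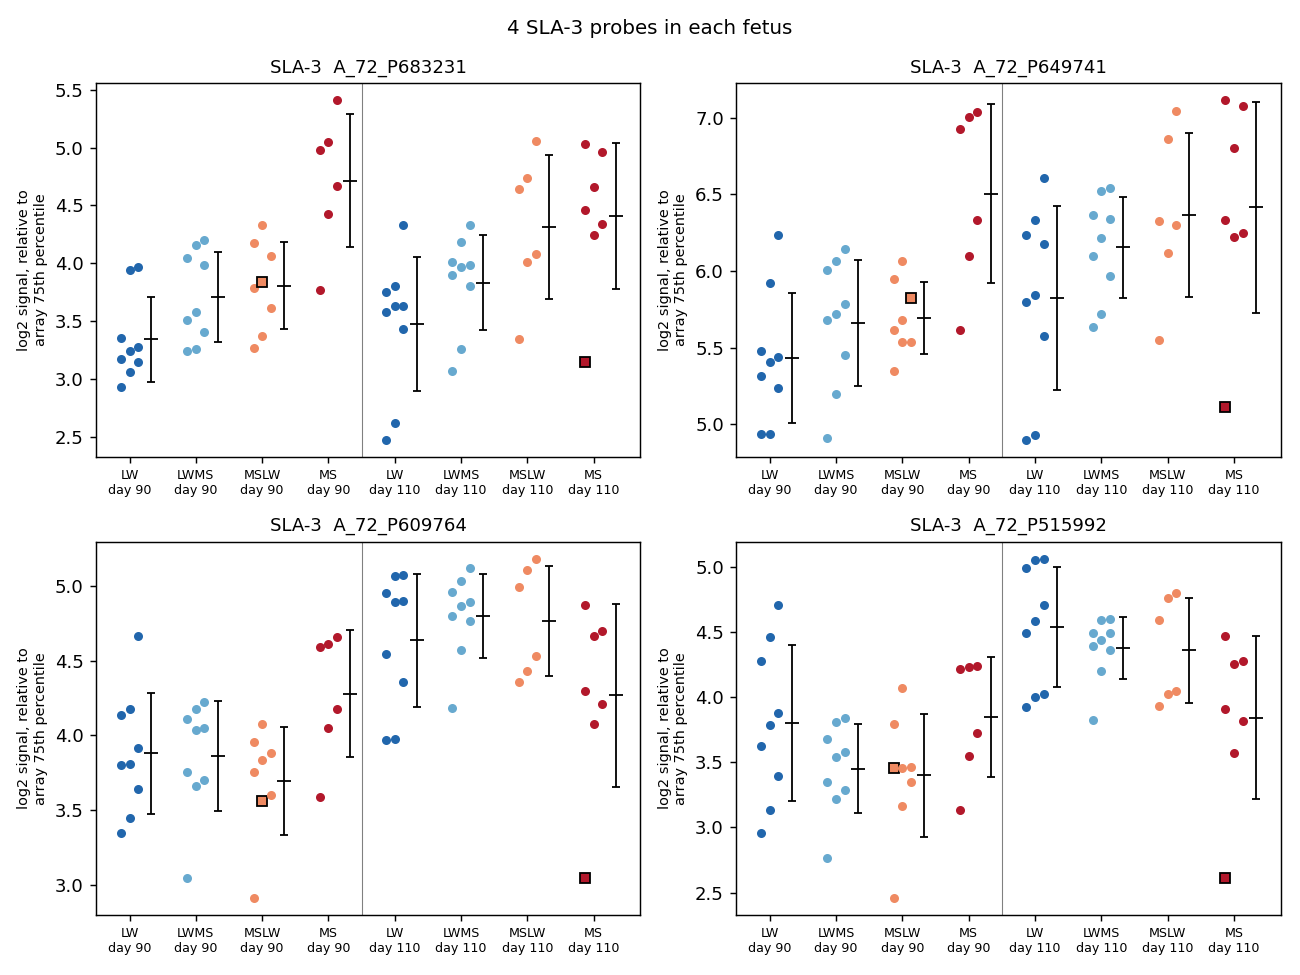
Log2 signal relative to the array's 75th percentile (y axis) of 4 SLA-3 probes in each fetus (points) by genotype and gestational age (x axis), with the group mean and SD, where squares with black edges mark fetuses 632 and 450. In SLA-3 probe A_72_P683231 the MS means are the highest at both days (4.72 and 4.41, against 3.35 and 3.48 in LW), while in A_72_P515992 LW rises from 3.80 to 4.54 and MS stays at 3.85 and 3.84.

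B2M is the light chain that every class I molecule shares. Its 9 probes lay between 0.47 and 0.64 in MS minus LW over both days, all above 0, and none was called (adjusted p from 0.0126 to 0.0916, limma), although 9 of 9 had an unadjusted p below 0.05. CUST_232_PI427286967 ranged from 5.89 to 7.16 in LW (median 6.26) and from 6.61 to 7.73 in MS (median 7.09) at day 90. At day 110 it ranged from 6.09 to 7.35 in LW (median 6.99) and from 5.54 to 7.81 in MS (median 7.21). The MS fetuses were the higher ones at day 90, while at day 110 the groups lay over each other and the lowest value was that of an MS fetus. Fetus 632 was the lowest of the MS fetuses of that day for 22 of the 24 class I probes. Within slides the breed difference of CUST_232_PI427286967, with both days pooled, was above 0 on 7 of 7. Without fetus 632 all 9 B2M probes were called, CUST_232_PI427286967 at 0.62 (adjusted p = 0.00483) and A_72_P739834 at 0.82 (adjusted p = 0.000223). Other alternatives also called B2M probes, with 9 of 9 called under array weights and 2 of 9 with the slide as a block. Of all probes, in either direction, 9.27% were called without fetus 632, 14.8% under array weights and 8.72% with the slide as a block. The reported fit called 8.03%.

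With age, 5 class I probes rose and no class II probe was called. Over the 4 genotypes, the day 110 minus day 90 difference was above 0 for 24 of 24 class I probes (0.11 to 0.69, median 0.35) and below 0 for 23 of 23 class II probes (-0.62 to -0.04, median -0.12). The classes were not tested against each other. Within genotypes, class I probes were above 0 for 23 of 24 in LW, 24 in LWMS, 23 in MSLW and 9 in MS (22 in MS without fetus 632). Class II probes were above 0 for 10 of 23 in LW, 1 in LWMS, 13 in MSLW and 1 in MS. Without fetus 450 the MSLW class II count was 1, with a median of -0.26 instead of 0.05. The MS class II count was 6 without fetus 632. Over the 4 genotypes the class II median was -0.05 without fetus 632 and -0.20 without fetus 450. The pooled counts over the genotypes, 24 of 24 class I above 0 and 23 of 23 class II below 0, held without fetus 632 and without fetus 450. The pooled values of SLA-DQA1 probe A_72_P765361, SLA-DRA probe A_72_P683574, SLA-DMA probe A_72_P025111 and SLA-DQB1 probe A_72_P039061 turned above 0 under median centring, array weights or without fetuses 484 and 469, by at most 0.08. The median over all probes was -0.02. Of the 47, 5 were called higher at day 110 (10.6%), all of class I, beside 6.07% of all probes. None was called lower by limma, beside 7.71% of all probes, and 5 of the 23 class II probes had an unadjusted p below 0.05.

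The 3 SLA-3 probes called with age included the pair with no called breed difference. A_72_P609764 rose by 0.69 ± 0.10 (SE, adjusted p = 2.89e-07, limma), A_72_P515992 by 0.65 (adjusted p = 7.1e-06) and A_72_P625308 by 0.61 (adjusted p = 0.00175), and the first and second of these rose on 8 of 8 slides. The SLA-1 probes CUST_238_PI427286967 and CUST_30_PI427286967 rose by 0.53 each. SLA-1 probe CUST_174_PI427286967 had a difference of 0.39 (adjusted p = 0.000613), and the B2M probes differences of 0.32 to 0.43, 2 of them with adjusted p-values of 0.00571 and 0.00859, all under the size of 0.5 that a call required. The ratios between probes of a gene changed with age for none of 38 by limma, beside 2.87% of all ratios, with 10 at an unadjusted p below 0.05.

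Within genotypes, 1 of 47 was called higher at day 110 in LW (2.13%), beside 2.23% of all probes. In LWMS it was 2 of 47 (4.26%), beside 4.18%, and in MSLW 3 of 47 (6.38%), beside 2.45%. In MS none was called in either direction by limma, beside 3.12% of all probes, and 1 had an unadjusted p below 0.05. The probe called in LW was A_72_P609764, at 0.75. Without fetus 632 the LW count was 2, beside 5.53% of all probes called in either direction (4.76% with all fetuses). In LWMS, A_72_P515992 (0.93) and A_72_P609764 (0.94) were called, and in MSLW these (0.96 and 1.07) and A_72_P625308 (1.24). With the slide as a block, A_72_P609764 alone kept its MSLW call, and under median centring none was called in MSLW. In MS the pair differed by -0.0047 and -0.01, and by 0.20 and 0.19 without fetus 632. The difference between the breeds in this change, -0.74 for A_72_P515992 and -0.77 for A_72_P609764, did not pass the interaction test (adjusted p = 0.666 and 0.556, limma). Over all 47, 33 lay above 0 in LW and 10 in MS, the latter 28 without fetus 632.

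**Figure D3:**
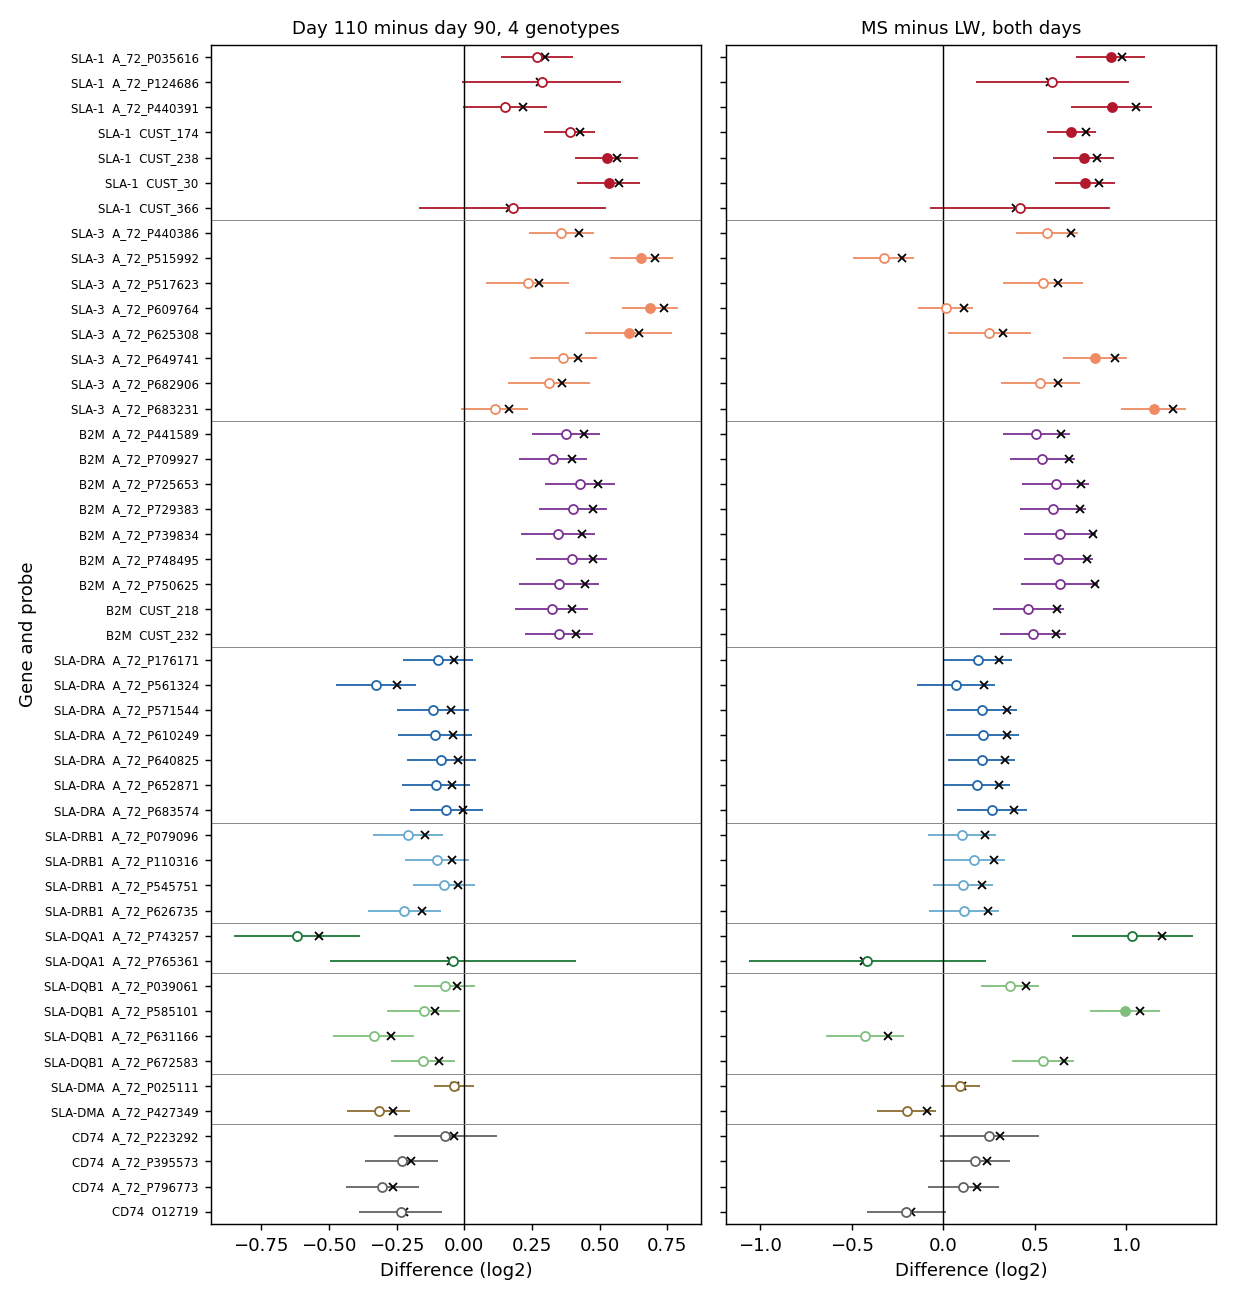
Difference in log2 signal (x axis) for each of the 47 member probes (rows, coloured by gene), day 110 minus day 90 on the left and MS minus LW on the right, with bars of 1 SE, filled points for called probes, open points for the others and crosses for the value without fetus 632. On the left all class I probes lie right of 0 and all class II probes left of it, and on the right the 8 called probes lie between 0.70 and 1.15 while SLA-3 probe A_72_P515992 lies at -0.33.

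The class II chains of the DR molecule, SLA-DRA and SLA-DRB1, showed no called difference by age or breed in limma. Over both days, none of the 7 SLA-DRA and 4 SLA-DRB1 probes reached an unadjusted p of 0.05 between the breeds, and 1 SLA-DRA probe did with age. SLA-DRA probes lay between 0.07 and 0.27 in MS minus LW and between -0.33 and -0.07 with age. SLA-DRB1 probes lay between 0.10 and 0.17 and between -0.22 and -0.07. Without fetus 632 the breed values were 0.22 to 0.39 for SLA-DRA and 0.21 to 0.28 for SLA-DRB1, and without fetus 450 the age values were -0.41 to -0.15 and -0.30 to -0.15, with no probe of either called. A_72_P640825 of SLA-DRA had medians of 3.92 in LW and 4.16 in MS at day 90, and of 3.76 and 4.05 at day 110. Its lowest values were 1.18 in fetus 450 and 2.41 in fetus 632, outside the range of 3.03 to 4.69 that all other fetuses covered.

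SLA-DQB1, the β chain of DQ, was the class II gene with a called breed difference. A_72_P585101 ranged from 1.57 to 3.78 in LW (median 2.68) and from 2.98 to 4.39 in MS (median 3.69) at day 90. At day 110 it ranged from 1.77 to 3.26 in LW (median 2.39) and from 2.25 to 3.79 in MS (median 3.38). The groups overlapped at both days, with the MS medians near the top of the LW range. The difference was 0.99 ± 0.19 (SE, adjusted p = 8.3e-05, limma), and 0.83 to 1.42 within the 7 slides that held both breeds. The other SLA-DQB1 probes gave 0.37 (A_72_P039061), 0.55 (A_72_P672583, adjusted p = 0.0181) and -0.43 (A_72_P631166) and were not called. A_72_P631166 was dim, well above background on 61 of 63 arrays.

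SLA-DQA1, the α chain of DQ, had a pair of probes that did not move together. A_72_P743257 ranged from -1.70 to 1.39 in LW (median -0.68) and from -0.33 to 1.26 in MS (median 0.51) at day 90. At day 110 it ranged from -2.73 to 0.26 in LW (median -1.77) and from -2.31 to 0.56 in MS (median -0.18). The LW fetuses were more spread out than the MS fetuses at day 90, and the groups overlapped on both days. The breed difference was 1.03 (adjusted p = 0.0226, limma), and without fetus 632 it was 1.20 and called (adjusted p = 0.0054). A_72_P765361 gave -0.42, with values from -7.15 to -0.14 over all fetuses and no separation of groups. Deviations of the pair from their group means correlated at r = 0.05 over 63 arrays.

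CD74 and SLA-DMA showed no called difference by age or breed in limma, and 1 probe of each had an unadjusted p below 0.05 with age. CD74 probes lay between -0.20 and 0.25 in MS minus LW and between -0.30 and -0.07 with age. SLA-DMA probes lay between -0.20 and 0.09 and between -0.32 and -0.04. CD74 probe A_72_P395573 had medians of 1.30 in LW and 2.03 in MS at day 90, and of 1.48 and 1.35 at day 110, and its lowest values were -0.63 in fetus 450 and -0.68 in LWMS fetus 405 of day 110. Those fetuses lay apart from the rest of their groups.

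The reciprocal crosses allowed the breed of the sire and of the sow to be separated, each as the average over both breeds of the other parent. For the sire, 8 of 47 member probes were called higher with an MS sire (17%), beside 3.11% of all probes. The paper, which used a mixed model, reported no probe affected by the paternal genotype. For the sow, 13 of 47 were called higher with an MS sow (27.7%), beside 7.26% of all probes, and none lower, beside 8.71%. Without fetus 632 these counts were 11 and 28. Of all probes, 7.44% and 21.3% were then called in either direction, beside 6.95% and 16% with all fetuses. The 28 included 6 SLA-DRA and 4 SLA-DRB1 probes. The median sow differences of SLA-DRA and SLA-DRB1 were 0.30 and 0.27 with all fetuses and 0.37 and 0.33 without fetus 632. Without fetus 450, a fetus of an LW sow, these medians were 0.22 and 0.20, no SLA-DRA or SLA-DRB1 probe was called, and the sow count was 13. With the authors' processed values the sow count was 7.

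SLA-3 probe A_72_P683231 differed by both parents, by 0.72 for the sire (adjusted p = 3.09e-05, limma) and 0.43 for the sow. SLA-1 probe A_72_P035616 gave 0.50 and 0.41, CUST_174_PI427286967 gave 0.40 and 0.30, SLA-3 probe A_72_P649741 gave 0.48 and 0.36, and SLA-DQB1 probe A_72_P585101 gave 0.57 and 0.42, all called for both parents. SLA-DQA1 probe A_72_P743257 was called for the sire alone, at 0.92 (adjusted p = 0.00657, above 0 on 8 of 8 slides), with 0.11 for the sow. SLA-1 probe A_72_P440391 (0.64) and SLA-3 probe A_72_P440386 (0.38) were also called for the sire alone. By comparison, 5 B2M probes (0.38 to 0.48), SLA-1 probes CUST_238_PI427286967 and CUST_30_PI427286967 (0.45 each) and SLA-DQB1 probe A_72_P672583 (0.34) were called for the sow alone. For the sow, the ratio of B2M probes to CUST_232_PI427286967 was called for the same 5 probes and for none of the other 3. The 5 lay at 0.12 to 0.22 (adjusted p from 0.0156 to 0.0499, limma). Of the SLA-3 ratios, 2 of 7 were called for the sow and 4 of 7 for the sire. For the sire, 2 of 3 SLA-DQB1 ratios and none of 8 B2M ratios were called. The share over all ratios is not given for the parents, so these counts have no background to be read against. Sire and sow effects were not tested against each other other than in the reciprocal crosses.

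In LWMS minus MSLW, which sets the sow against the sire, no member probe was called by limma, beside 1.62% of all probes, while 12 had an unadjusted p below 0.05. SLA-DRA and SLA-DRB1 probes were all above 0 (0.37 to 0.48 and 0.42 to 0.45, or 0.20 to 0.30 and 0.26 to 0.30 without fetus 450), and SLA-DQA1 probe A_72_P743257 had the lowest value, -0.81 (adjusted p = 0.184). For the crossbreds minus the midpoint of the purebreds none was called, beside 0.18% of all probes, with 1 at an unadjusted p below 0.05. There, 41 of 47 member values lay below 0, from -0.44 to 0.27. In the group of MSLW fetuses at day 90, fetus 450 pulled the class II means down, as the plot of class I against class II levels shows.

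**Figure D4:**
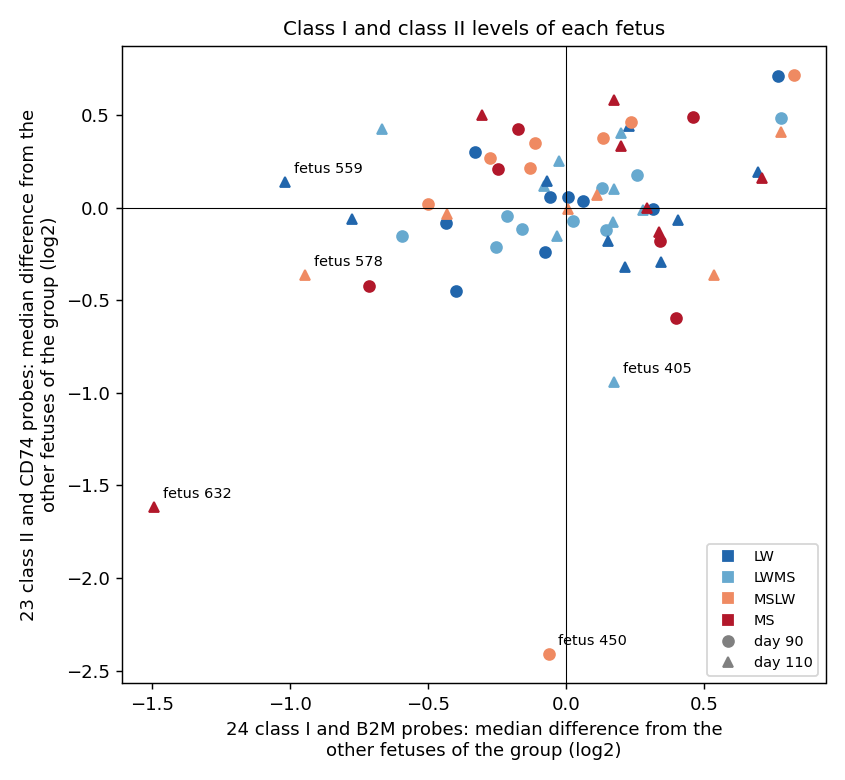
Each fetus (point) by the median difference of its 24 class I probes (x axis) and of its 23 class II probes (y axis) from the other fetuses of its group, in log2 units. Circles stand for day 90, triangles for day 110 and colours for genotype, and fetuses 632, 450 and 405 are among those labelled. Fetus 632 lies low on both axes (-1.49 and -1.62), fetus 450 low on the class II axis alone (-0.06 and -2.41), and fetus 405 is next on the class II axis (-0.94).

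Markers of the cells that make class II were low in fetus 450, and so were those of T cells, endothelium and red cells. The summed level of 13 macrophage and dendritic probes was 2.81 there, against a median of 4.42 in its group, and the median deviation of that list from the group mean was -1.13, beside -1.01 for 4 probes of genes shared by all white cells and 0.42 for 8 epithelial probes. Of the 13, CD68 was the dimmest, well above background on 32 of 63 arrays. In fetus 450 the 6 B cell probes deviated by -1.16, the 8 T cell probes by -0.65 and the 5 endothelial probes by -0.77. The 2 red cell probes deviated by -0.99 there and the 8 smooth muscle and mesenchyme probes by 0.23. In fetus 632 the macrophage and dendritic list deviated by -0.70 and the B cell list by 1.89, with CD163 (-0.13), CD68 (-3.79), CD14 (-2.39) and MRC1 (0.77) of the former above their means over all arrays (-1.22, -5.17, -2.87 and 0.06). The part of these cells in the class II levels was not tested. The summed macrophage and dendritic level lay between 4.35 and 5.25 in LW and between 4.52 and 5.41 in MS at day 90, and between 4.27 and 6.52 and between 3.71 and 7.64 at day 110, so the breeds overlapped. Over both days none of the 13 macrophage and dendritic, 6 B cell or 4 white cell probes was called between the breeds by limma, with 1, 0 and 0 at an unadjusted p below 0.05. LCK of 8 T cell probes (-1.16) and KDR of 5 endothelial probes (-0.99) were lower in MS, and AHSP of 2 red cell probes was higher (1.23), and their part in the member differences was not tested. For the breed of the sow, 5 of the 13 macrophage and dendritic probes were called higher with an MS sow, beside 7.26% of all probes. They were C1QA, C1QB, C1QC, CD163 and TYROBP (0.28 to 0.48). Fetus 450, of an LW sow, lay below the mean over all arrays in each, as in C1QA (0.26 against 2.42). These sow differences include it. With age, LYZ (3.45) and CD163 (0.94) of that list rose. Of 8 epithelial probes, 3 were called higher and 1 lower, beside 6.07% and 7.71% of all probes. FABP1 (2.55), ALPI (2.47) and LCT (1.37) were among those that rose. The 6 B cell probes had a median of -0.69 with age, none called by limma and 5 at an unadjusted p below 0.05. Both red cell probes fell, AHSP by 1.80 and HBB by 1.68, as did ACTA2 (-0.55) and COL1A1 (-0.81) of 8 smooth muscle and mesenchyme probes. The part of these cells in the changes of the members with age was not tested.

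Probes differed in how much they varied between fetuses of a group. SLA-DQA1 probe A_72_P765361 had a within-group SD of 1.83, the 99.7th percentile of all probes tested. SLA-1 probes CUST_366_PI427286967 (1.38) and A_72_P124686 (1.18) lay at the 98.9th and 97.6th percentiles, and SLA-DQA1 probe A_72_P743257 (0.93) at the 93.8th. Other SLA-1 probes varied far less, with A_72_P035616 at 0.53. CUST_366_PI427286967 ranged from 0.59 to 5.67 in LW and from -0.98 to 5.49 in MSLW at day 110, with LW fetuses 557, 559 and 850 at 2.43, 0.81 and 0.59 and the other LW fetuses of that day at 4.63 or above. These are the same 3 LW fetuses that were low for A_72_P035616, with which it shares 31 bases, and MSLW fetus 851, the lowest at -0.98, was also the lowest of its group for A_72_P035616 (6.20). Over all arrays the deviations of this pair from their group means correlated at r = 0.53, and those of A_72_P035616 and A_72_P124686 at r = 0.16. These fetuses were singled out after their values were seen.

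**Figure D5:**
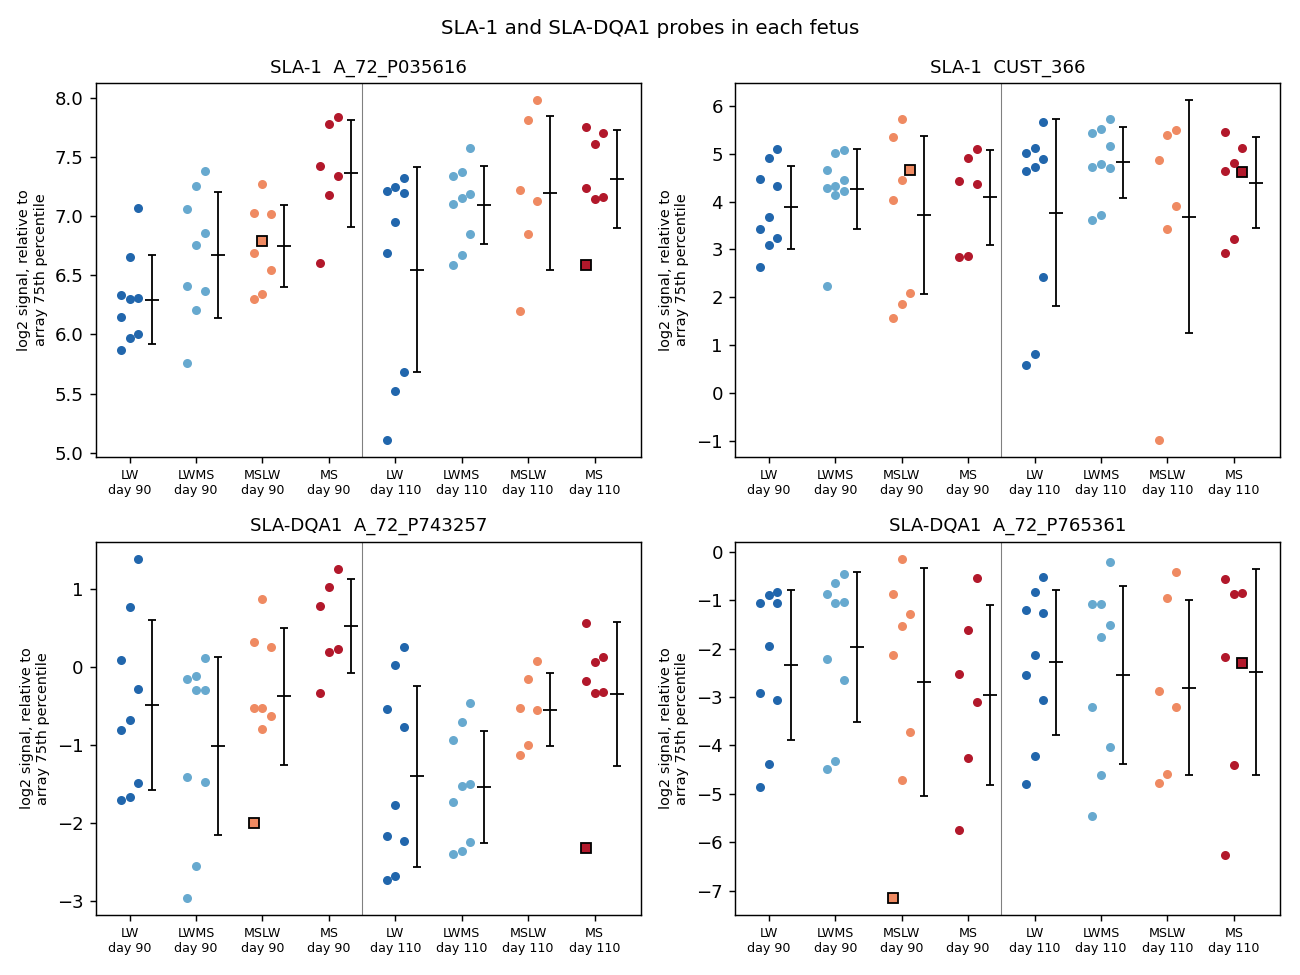
Log2 signal relative to the array's 75th percentile (y axis) of SLA-1 probes A_72_P035616 and CUST_366_PI427286967 and SLA-DQA1 probes A_72_P743257 and A_72_P765361 in each fetus (points) by genotype and gestational age (x axis), with the group mean and SD, where squares with black edges mark fetuses 632 and 450. CUST_366_PI427286967 and A_72_P765361 scatter within every group (within-group SD 1.38 and 1.83), more than the other probes drawn.

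Probes of one gene otherwise rose and fell together from fetus to fetus. The median correlation of deviations from group means, over 63 arrays, was 0.96 among B2M probes, 0.96 among SLA-DRA probes and 0.98 among SLA-DRB1 probes, but 0.63 among SLA-3 and 0.37 among SLA-1 probes. Between genes it was 0.87 for SLA-DRA with SLA-DRB1, the chains of 1 molecule, 0.68 for CD74 with SLA-DRB1, 0.58 for B2M with SLA-1, and -0.16 for CD74 with B2M. All of these values share the same arrays, and those of class II include the low levels of fetus 450.

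Among named genes outside the members, those with the pattern most like CD74 probe A_72_P395573 over 63 arrays, by Pearson correlation of log2 signal, were GJA4 (0.76), TGFB1 (0.74), DDX39B (0.73), ITGB7 (0.72), SLA-DMB (0.72) and SLC9A3R2 (0.72). SLA-DMB encodes the partner chain of SLA-DMA. Those most like B2M probe CUST_232_PI427286967 were PSME2 (0.90), SLC25A20 (0.88), SSR1 (0.88), DRG1 (0.88), CALM3 (0.87) and RTN4IP1 (0.87). PSME2 encodes a subunit of the proteasome activator that shapes peptides for class I.

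Other genes of the pathway were followed as lists, each gene by its probe with the highest mean signal. Of 12 tested genes of class I peptide loading, none was called between the breeds by limma over both days, with 2 at an unadjusted p below 0.05. TAP1, a subunit of the peptide transporter, gave 0.71 at day 90 (adjusted p = 0.043) and -0.02 at day 110, and was called higher with an MS sire, by 0.37. PSMB8, an immunoproteasome subunit, gave 0.91 (adjusted p = 0.109) and -0.16. Fetus 632, among the MS fetuses of day 110, deviated from its group mean by a median of -1.07 over the 12 genes. The day 110 values include it. With age, ERAP1, which trims peptides, rose by 0.56 ± 0.08 (SE, adjusted p = 1.88e-08). CANX (0.35) and PDIA3 (0.33), chaperones of heavy chain folding, passed the p but not the size.

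Among the further class I and class I-like genes tested, none was called lower in MS over both days, and those called higher included HLA-B (1.02), HLA-E (3.14 ± 0.53, adjusted p = 7.13e-06), HLA-F (0.94) and SLA-5 (0.85), with the human names standing as in the array design for pig class I sequences. SLA-8 was called at day 110, at 0.51. Of these, the HLA-F probe shares a run of at least 25 bases with SLA-1 probe CUST_174_PI427286967, and 21 probes outside the members shared such a run with a member probe, so they are not independent of the members. Of 13 tested further class II genes and class II loading enzymes, none was called between the breeds or had an unadjusted p below 0.05 in limma over both days. CTSL1 rose with age by 0.83 and CTSB, like it a lysosomal protease, fell by 0.71, whereas CTSD (-0.47) was under the size, and SLA-DMB was higher with an MS sow, by 0.28.

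Of 15 tested regulators of MHC transcription, 3 were called higher in MS over both days, beside 3.3% of all probes, and none lower. NLRC5, the transactivator of class I genes, differed by 0.80 (adjusted p = 0.00156, limma), IRF1 by 0.54 and IFNGR1, a chain of the interferon-γ receptor, by 0.75. With age IFNGR2 rose by 0.69 and RFXANK, a subunit of the RFX complex at MHC promoters, fell by 0.54, while RFXAP (-0.31) and NFYC (-0.40) passed the p but not the size. CIITA, the class II transactivator, had no probe under that name.

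Of 28 tested interferon-response genes, 2 were called higher in MS at day 90, the chemokine CXCL9 (1.99) and GBP1 (1.03), beside 1.36% of all probes, with a list median of 0.57 against 0.03 over all probes. At day 110 the list median was -0.17 and BST2 was called lower in MS, by -1.09. Fetus 632, among the MS fetuses of that day, deviated from its group mean by a median of -0.91 over the list. These day 110 values include it. Neither list median was tested, and the interaction of breed with age was called for none of the 28 by limma, with 10 at an unadjusted p below 0.05. For the breed of the sow, 1 of the list was higher with an MS sow, STAT2 (0.23), beside 7.26% of all probes, and 6 were lower, beside 8.71%, among them HERC5 (-1.12), OASL (-0.92) and MX2 (-0.62). With age, 5 rose, beside 6.07% of all probes, among them OAS1 (1.38) and PARP14 (0.84), and 3 fell, beside 7.71%: CXCL9 (-1.19), BST2 (-0.69) and CXCL10 (-0.52).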

How the data were processed

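Jejunal RNA of 63 fetuses was measured on one-colour Agilent pig arrays. The deposited scanner files, made by the authors with Agilent Feature Extraction 10.10.1.1, hold intensity per spot (background-subtracted processed signal). The authors' value table holds log2 values, which match quantile normalized log2 median signals (median absolute difference 4.05e-10), and served as an alternative. The processed signal was taken to log2 and centred on each array's 75th percentile. Control spots were dropped, spots with an outlier flag were set to missing (2 values of member probes), and spots of a probe were averaged. A probe was kept if, in 1 group or more, 75% of arrays or more had it well above background. limma 3.58.1 in R 4.3.3 fitted 8 group means without covariates, with Benjamini-Hochberg adjustment. Calls required an adjusted p below 0.01 for the F test, of at most 0.01 for the interaction and, with a difference of at least 0.5, for age and breed, and below 0.05 for parents and crosses.

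The precision of these values is set by the number of arrays. All member probes are reported. Full statistics are given for probes called in a comparison or that disagree with another probe of their gene. Other genes are counted by list, with values for the 4 of smallest F test p and for NLRC5, TAP1 and PSMB8. Some listed genes are not reported here. Members, lists and tests were chosen with earlier results of these data known. RefSeq symbols were matched through the transcripts listed for each probe. Probes named SLA2 without a hyphen stand for another gene and were not used. Alternatives were the authors' values, normexp correction (offset 50), quantile normalization, median centring, other filters, array weights, the slide as a block, purebred fetuses alone, no minimum difference, and leaving out fetuses. The fits were tested on simulated data.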

Additional observations from a re-analysis of the deposited data

Results flagged for a closer look

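Among 176 sets of 1 probe in 1 group (22 probes), 24 had a fetus whose gap to its nearest neighbour was large for the group's range, by Dixon's criterion, which chance meets in about 1 in 20 groups. These sets share arrays and are not independent. Values are log2 signals relative to the array's 75th percentile.

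Fetus 632 (MS, day 110) stood apart for 8 probes. Its levels were 4.66 for SLA-1 probe CUST_174_PI427286967, 1.17 and 3.15 for SLA-3 probes A_72_P440386 and A_72_P683231, 2.41 for SLA-DRA probe A_72_P640825, 2.40 for SLA-DRB1 probe A_72_P545751, -2.31 for SLA-DQA1 probe A_72_P743257, and 2.86 and 2.25 for SLA-DQB1 probes A_72_P039061 and A_72_P585101. All were the lowest of the group. The enterocyte genes FABP2, LCT and MTTP were also lowest of all arrays in this fetus, and their part in these levels was not tested.

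Fetus 450 (MSLW, day 90) stood apart for 6 class II probes. Its levels were 1.18 for SLA-DRA probe A_72_P640825, 1.29 for SLA-DRB1 probe A_72_P545751, 1.75 and 1.09 for SLA-DQB1 probes A_72_P039061 and A_72_P585101, 0.42 for SLA-DMA probe A_72_P025111 and -0.63 for CD74 probe A_72_P395573.

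LWMS fetus 405 of day 110 was low for SLA-DRA probe A_72_P640825 (3.03) and CD74 probe A_72_P395573 (-0.68). LW fetus 484 of day 90 was low for the same CD74 probe (0.34), and MSLW fetus 578 of day 110 for SLA-DRB1 probe A_72_P545751 (2.94). Among class I probes, CUST_366_PI427286967 of SLA-1 was low in LWMS fetus 823 of day 90 (2.23) and in MSLW fetus 851 of day 110 (-0.98), A_72_P609764 of SLA-3 was low in LWMS fetus 509 (3.05) and MSLW fetus 485 (2.91) of day 90, CUST_174_PI427286967 of SLA-1 stood apart in LWMS fetus 508 of day 90 (5.41), and CUST_238_PI427286967 of SLA-1 in LWMS fetus 609 of day 110 (6.005).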

How the results depend on the processing

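Of the counts of called member probes under the alternatives, 147 stayed within 1.5 times the reported count and 35 did not. Array weights gave 26 for the F test, and 3, 1, 7 and 12 for age in LW, MS, LWMS and over the genotypes. They gave 14, 12 and 22 for breed at day 90, at day 110 and over both days, 19 for the sire and 29 for the sow. Calls over all probes, in either direction, rose as well. In the same order they were 55.5%, 8.31%, 10.6%, 14.6%, 16.3%, 6.98%, 15.7%, 14.8%, 15.5% and 32.6%. The reported fit had 28.7%, 4.76%, 3.12%, 9.86%, 13.8%, 3.58%, 5%, 8.03%, 6.95% and 16%. Without fetus 632, an alternative chosen after seeing the data, the counts were 23 for the F test, 2 for age in LW, 7 for breed at day 110, 20 for breed over both days and 28 for the sow. Calls over all probes, in either direction, were 31.8%, 5.53%, 5.41%, 9.27% and 21.3% in that order. The authors' values and quantile normalization each gave 4 for age in LW, 2 for breed at day 110 and 7 for the sow. Median centring gave 0 for age in LW, 0 for age in MSLW, 1 for breed at day 90, 0 at day 110, 4 for the sire and 22 for the sow. The purebred fetuses alone gave 0 for age in LW, 1 for breed at day 90 and 0 at day 110. With no filter on dim probes breed gave 4 at day 90 and 0 at day 110. Age in MSLW gave 1 with the slide as a block, age in LW gave 0 without fetuses 484 and 469, and age over the genotypes gave 8 with no minimum difference. The causes were not tested.

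For single probes, 1366 values kept direction and side of the threshold, 64 lost the call, 45 gained one and 12 changed sign. The change with age of SLA-DQA1 probe A_72_P765361 was 0.0094 under median centring and 0.0819 without fetuses 484 and 469. That of SLA-DMA probe A_72_P025111 was 0.0128 under median centring and 0.0211 with array weights, which also gave 0.0037 for SLA-DRA probe A_72_P683574 and 0.0393 for SLA-DQB1 probe A_72_P039061. MS minus LW of SLA-3 probe A_72_P609764 was -0.0728 with the authors' values, -0.0874 under quantile normalization and -0.0185 without fetuses 484 and 469. That of SLA-DRB1 probe A_72_P545751 was -0.0091 under quantile normalization, and array weights gave 0.41 for SLA-DQA1 probe A_72_P765361 and 0.0097 for CD74 probe O12719. None of these 12 values had been called. No paired analysis was possible because the groups share no replicate numbers, and the slide, which holds several groups, was fitted as a block instead. Without fetus 450, also chosen after seeing the data, the counts were 12 for the F test, 3 and 2 for age in LWMS and MSLW, 9 for breed over both days and 9 for the sire, and without fetus 632 age in LWMS gave 3.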
